A study of Mus musculus with 17 samples.

Results

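The replication-dependent histone genes are the clustered genes for the core histones H2A, H2B, H3 and H4 and the linker histone H1. They were taken as the rows of the deposited gene table whose names start with Hist1h, Hist2h, Hist3h or Hist4h, with the 1 pseudogene name left out. This gave 69 genes of 36172 in the table: 6 for H1, 20 for H2A, 18 for H2B, 12 for H3 and 13 for H4. The Hist1 cluster holds 56 of them, Hist2 holds 10, Hist3 holds 2 and Hist4 holds 1. The study knocked down RPAP1, an RNA polymerase II (Pol II) associated protein, in primary embryonic fibroblasts from C57Bl/6 mice. Cells received a control hairpin (SCR) or the hairpin shRPAP1 number 5 by lentivirus, were kept in puromycin, and were harvested on day 3. Pol II was measured by chromatin immunoprecipitation and sequencing with an antibody to total Pol II (N-20) or to the form with phosphate on serine 5 of the repeats in its tail (Ser5P). Both groups share the virus, the selection and the strain, and chromatin of 3 lines was pooled, so each of the 4 groups is 1 library with no replicate and no test is possible. A free-text note on both knockdown libraries names the control, whereas their titles and treatment fields name shRPAP1. The titles were followed, and every direction below rests on them.

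These genes supply the histones that package newly copied DNA, and they are switched on in S phase. Their transcription is organised in the histone locus body, a nuclear compartment built around the factor NPAT. Their transcripts end in a conserved stem-loop bound by SLBP instead of a poly(A) tail. Serine 5 phosphorylation marks Pol II that has initiated and stands near the start of genes.

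The families differed in the letters of their promoters, and 6 are shown as examples. Hist1h4c and Hist1h4n had the highest SCR promoter signal of all members with total Pol II and Ser5P, Hist1h2bb and Hist2h2ac hold the octamer, Hist1h1c holds the H1 box, and Hist1h2aa carried almost no Pol II. Promoter sequences of 61 members were found in RefSeq on GRCm38.p6. Each runs 5′ to 3′ from 250 bases before the start site to 50 after it. Capitals mark 5 motifs on either strand. The TATA box was searched as TATAAA. The box known from many histone promoters was searched as CCAAT. The octamer known from H2B promoters was searched as ATTTGCAT, and the H1 box as AAACACA. A core of the H4 promoter element was searched as GGTCCG.
Hist1h4c (chr13:23698409-23698708, minus strand): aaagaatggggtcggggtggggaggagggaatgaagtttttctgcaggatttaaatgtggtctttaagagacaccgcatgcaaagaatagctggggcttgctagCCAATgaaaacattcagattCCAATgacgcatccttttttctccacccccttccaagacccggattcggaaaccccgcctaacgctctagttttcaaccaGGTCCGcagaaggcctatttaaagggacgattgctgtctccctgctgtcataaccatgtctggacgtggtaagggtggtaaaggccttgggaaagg
Hist1h4n (chr13:21832148-21832447, minus strand): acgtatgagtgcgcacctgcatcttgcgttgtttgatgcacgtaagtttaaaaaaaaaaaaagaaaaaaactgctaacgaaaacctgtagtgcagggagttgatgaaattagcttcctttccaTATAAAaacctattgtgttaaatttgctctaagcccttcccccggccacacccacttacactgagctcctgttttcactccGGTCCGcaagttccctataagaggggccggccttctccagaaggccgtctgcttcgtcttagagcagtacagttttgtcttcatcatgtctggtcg
Hist1h2bb (chr13:23746484-23746783, plus strand): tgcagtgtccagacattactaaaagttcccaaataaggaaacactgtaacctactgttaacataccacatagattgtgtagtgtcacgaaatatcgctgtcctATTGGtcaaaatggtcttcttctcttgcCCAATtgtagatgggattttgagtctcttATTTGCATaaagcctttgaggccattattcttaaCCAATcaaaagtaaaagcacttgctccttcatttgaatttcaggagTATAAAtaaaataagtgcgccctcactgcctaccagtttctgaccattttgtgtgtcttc
Hist1h1c (chr13:23738557-23738856, plus strand): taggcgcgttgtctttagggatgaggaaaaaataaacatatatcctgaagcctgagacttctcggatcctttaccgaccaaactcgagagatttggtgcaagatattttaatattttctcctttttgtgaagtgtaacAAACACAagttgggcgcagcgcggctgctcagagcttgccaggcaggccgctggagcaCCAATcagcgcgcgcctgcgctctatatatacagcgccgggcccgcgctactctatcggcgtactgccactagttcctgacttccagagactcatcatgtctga
Hist2h2ac (chr3:96220831-96221130, minus strand): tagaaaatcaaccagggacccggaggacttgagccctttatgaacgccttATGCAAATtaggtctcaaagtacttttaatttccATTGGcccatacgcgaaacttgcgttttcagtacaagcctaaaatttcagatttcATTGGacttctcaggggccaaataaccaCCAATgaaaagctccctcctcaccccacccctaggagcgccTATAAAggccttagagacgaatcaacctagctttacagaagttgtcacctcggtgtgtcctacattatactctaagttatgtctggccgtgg
Hist1h2aa (chr13:23934187-23934486, plus strand): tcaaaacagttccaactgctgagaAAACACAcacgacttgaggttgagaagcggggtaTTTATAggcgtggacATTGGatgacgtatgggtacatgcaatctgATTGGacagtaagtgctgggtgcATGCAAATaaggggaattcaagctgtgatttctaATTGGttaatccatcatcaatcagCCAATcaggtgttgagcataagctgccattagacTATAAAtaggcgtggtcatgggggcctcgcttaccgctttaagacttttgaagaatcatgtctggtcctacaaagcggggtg

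The motif CCAAT occurred in all 5 H1, 18 H2A, 16 H2B and 10 H3 promoters found, but in 3 of 12 H4 promoters. Among all 32851 promoters of the same length, 37.4% held it. GGTCCG, a motif added after these sequences had been seen, showed the reverse: 11 of 12 H4 promoters held it, against 1 H2B and 1 H3 promoter among the rest and 8.25% of all promoters. The H1 box was in 4 of 5 H1 promoters, 2 of 18 for H2A, 2 of 16 for H2B, none for H3 or H4, and 7.18% of all promoters. The octamer was in 7 of 18 H2A and 6 of 16 H2B promoters, none of the other types, and 1.74% of all promoters. Promoters of H2A and H2B genes that start back to back overlap, so the same site can count for both. The octamers of Hist1h2aa and Hist1h2ba, of Hist1h2ae and Hist1h2bg, and of Hist1h2ah and Hist1h2bk are the same bases. CCAAT counts of such neighbours are likewise not separate. TATAAA was in 34 of 61 member promoters and 13.6% of all. The promoter of Hist1h2aa, which carried almost no Pol II, held 4 of these 5 motifs, among them CCAAT at 4 places. These matches describe letters and do not show binding.

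A perfect inverted repeat of 6 bases that starts with GG and surrounds a loop TTTN was found in the last 1000 bases, counted back from 150 past the annotated end, of 51 of 69 members. Members without one include Hist1h2be, Hist1h2bc and Hist1h1d, whose annotated transcripts are long. There the search can miss the end of a short histone transcript, so a member without a match may still hold the stem-loop. Of 4526 other protein-coding genes on the same chromosomes, 2 had one. It is shown because it is the letter form of the stem-loop that sets these genes apart, and the capitals mark its stem. In 31 members of types H1, H2A, H2B and H3 the form was the first below, and in 7 members, all H4, the second.
common form: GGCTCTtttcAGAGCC
H4 form: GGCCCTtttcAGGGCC

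With the control hairpin these genes were among the most heavily occupied in the table. The median percentile of the members' promoters among all genes was 96.8 for total Pol II and 98.9 for Ser5P. The deposited values are a coverage-based signal in which 1 read of 40 bases at a promoter is worth 28.8 and a value of 0.72 means no coverage. Promoter signal in SCR had a median of 545 over the 69 members with total Pol II and 1838 for Ser5P, against 27.4 and 29.6 over all genes. The members are 0.19% of genes and held 1.16% of all promoter signal with total Pol II and 1.59% with Ser5P. In shRPAP1 those shares were 1.03% and 1.29%.

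The 4 libraries held 129638 and 71277 promoter read equivalents with total Pol II, and 290756 and 156206 for Ser5P, in SCR and shRPAP1. Whether the authors scaled libraries to each other is not given in the sources used here, and the values have the same step in all 4. Over all genes called measured, the median log2 ratio of shRPAP1 over SCR was −0.97 at promoters with both antibodies. Ratios of the histone genes are therefore given beside that shift. Genes for odorant and vomeronasal receptors, which fibroblasts keep silent, moved the other way, from a mean promoter signal of 7.99 to 13.97 for total Pol II and from 6.71 to 10.1 for Ser5P. Of 10 fibroblast markers 9 were measured at promoters with total Pol II. Of 5 markers each, none was measured for epithelium, endothelium or muscle, 1 for immune cells and 1 for pluripotent cells. The immune marker was Cd68, at 947 and 278, and the other was Nanog, at 58.4 and 29.6. With Ser5P 10 fibroblast, 2 immune, 2 endothelial and 1 muscle marker were measured. The part of such cells in the results was not tested. Rpap1 itself had 211 and 325.3 at its promoter with total Pol II and 886 and 541 for Ser5P, in SCR and shRPAP1. A hairpin acts on RNA, so these values do not check the knockdown, and the RNA libraries were not analysed here.

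Near-identical copies limit what can be said of single members. Of the 40-base words in the promoter window of a member, a median of 39.9% occur once in the genome. The medians were 100% for H1, 28.4% for H2A, 46.2% for H2B, 33.3% for H3 and 44.7% for H4. Hist1h2ao, Hist1h2ap, Hist1h2bq, Hist1h2br and Hist2h2aa2 have no unique word, yet their SCR promoter signal with Ser5P was 1492, 857, 2561, 2293 and 3597. How reads that match several places were assigned is not given in the sources used here, so values of such copies are uncertain. Sums over a type can depend on it too, and this was not tested. The intervals of sums take each read as counted once, which could not be checked.

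Promoter signal was below its SCR value in shRPAP1 in 63 of 66 measured members with total Pol II and in all 67 measured with Ser5P. The same held for 10852 of 13451 and 13335 of 15756 of all measured genes. Among the 10% of genes most occupied in the SCR library of the other antibody, it held for 3426 of 3620 and 3545 of 3623. Summed over the 69 members, promoter signal went from 1514 to 743 read equivalents with total Pol II, 2.04-fold lower, and from 4639 to 2025 for Ser5P, 2.29-fold lower. The exact 95% Clopper-Pearson intervals of the log2 ratios, −1.16 to −0.90 and −1.27 to −1.12, cover counting error only. A gene counts as measured when the mean of its 2 libraries exceeds the 95th percentile of the receptor genes, and as lower or higher at 1.5-fold. Of 66 measured members 53 were lower with total Pol II and none was higher, where 65.8% of all measured genes were lower and 10.1% higher. With Ser5P 65 of 67 were lower and none higher, where 69.9% of all measured genes were lower and 8.37% higher.

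High signal accompanied these shares. Among the 10% of genes most occupied in the SCR library of the other antibody, 79.2% were lower with total Pol II and 85.8% with Ser5P. The median log2 ratio of the members was −1.11 for total Pol II (middle 50% −1.36 to −0.70) and −1.17 for Ser5P (−1.46 to −1.01). The same medians were −0.97 and −0.97 over all measured genes and −1.10 and −1.04 over the most occupied 10% of genes. At promoters with total Pol II the members thus stood where other highly occupied genes stood. After subtraction of the mean receptor signal the medians with total Pol II were −1.14 for the members and −1.17 for all genes.

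**Figure D1:**
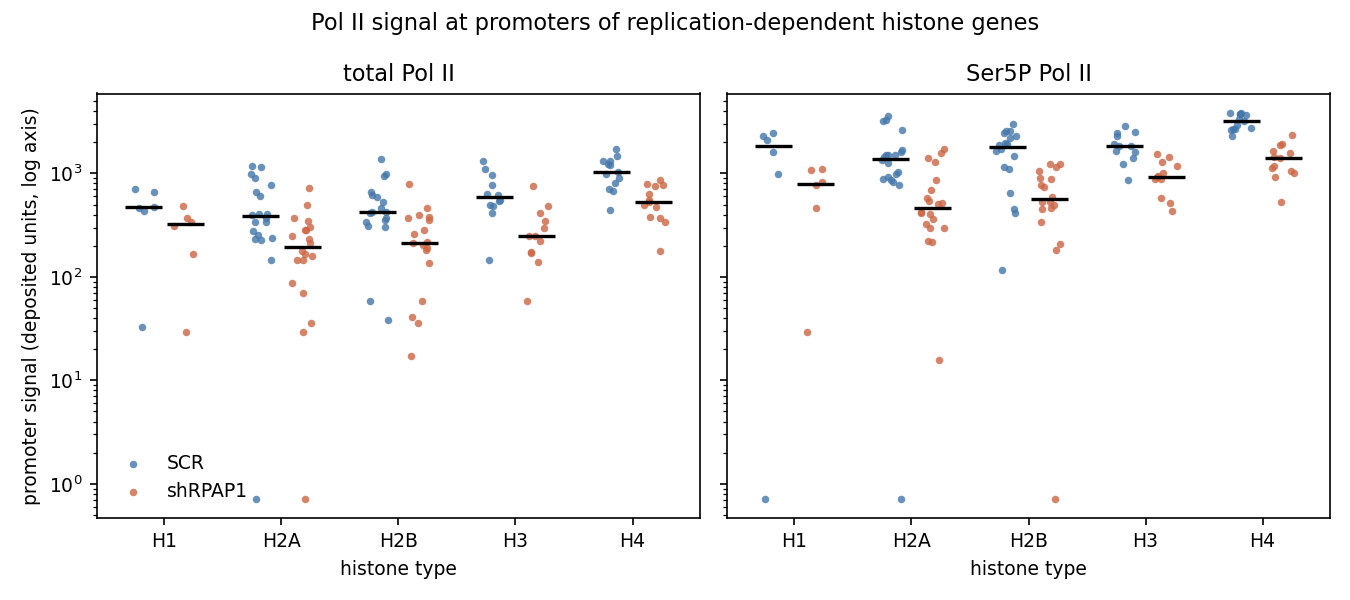
Promoter signal of each member (point; deposited units, log axis) by histone type with total Pol II (left) and Ser5P (right), in SCR (blue) and shRPAP1 (orange); black lines are medians. H4 genes have the highest medians, 1039 and 3224 in SCR, and every type has a lower median in shRPAP1, with points at 0.72 having no coverage.

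**Figure D2:**
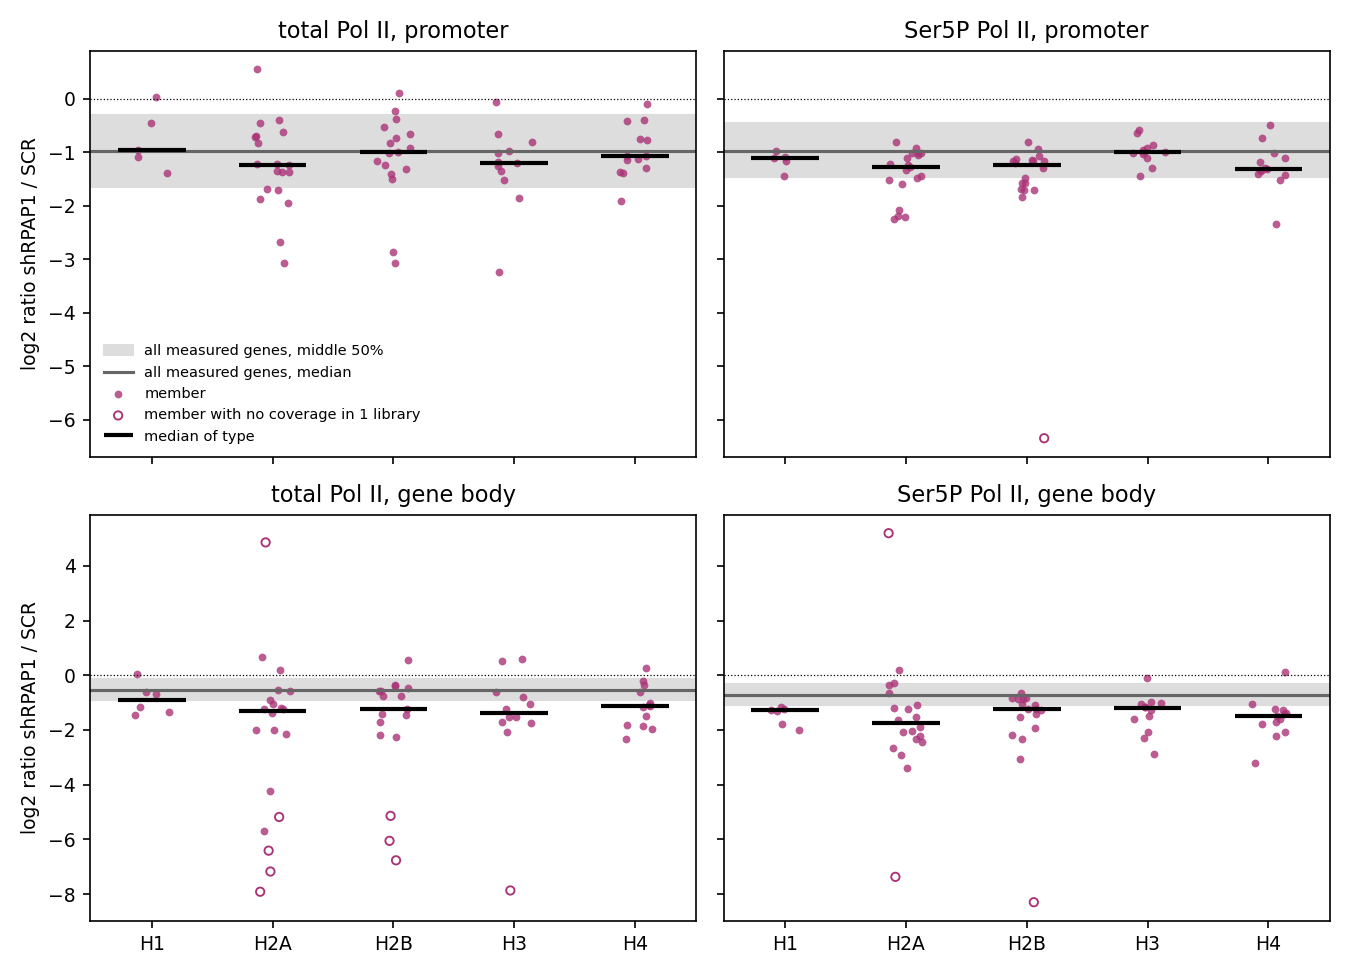
Log2 ratio of shRPAP1 over SCR for each measured member by type, at promoters (top) and over gene bodies (bottom); black lines are type medians, the grey line and band the median and middle 50% of all measured genes, and open points are members with no coverage in 1 library, whose position depends on the pseudocount. Promoter medians lie near the grey line, −1.11 against −0.97 for total Pol II, and body medians lie below it, −1.23 against −0.53.

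H1 is the linker histone that binds DNA between nucleosomes. Its 6 genes had a summed promoter signal of 97 and 60 read equivalents with total Pol II, a log2 ratio of −0.69 (−1.18 to −0.21), and of 327 and 147 for Ser5P, −1.15 (−1.44 to −0.87). Hist1h1c had 713 in SCR and 369 in shRPAP1 for total Pol II, and 2290 and 1074 for Ser5P. Hist1h1d had 666 and 312, and 2480 and 1103. Hist1h1e had 460 and 337, and 2087 and 770. With Ser5P these 3 were lower in shRPAP1. With total Pol II Hist1h1c and Hist1h1d differed by more than 1.5-fold and Hist1h1e by less (−0.45), and each interval reaches past 0.

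Hist1h1b had near-equal total signal in both libraries and lower Ser5P signal in shRPAP1, and the difference between antibodies was not tested. It had 477 and 487 for total Pol II, 17 read equivalents in each library (log2 ratio 0.03, −1.06 to 1.06), and 1619 and 822 for Ser5P (−0.98, −1.71 to −0.32). Hist1h1t, the H1 gene known from male germ cells, had 32.5, 29.6, 0.72 and 29.6 in total SCR, total shRPAP1, Ser5P SCR and Ser5P shRPAP1. Those are 1, 1, 0 and 1 read equivalents, under the 3 that a count of 0 allows, so no ratio is given. Of the other testis-type genes described below, Hist1h2aa also had almost no promoter signal. Hist1h2ba ranked low among the members but had 14 and 6 read equivalents with Ser5P in SCR and shRPAP1.

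H2A and H2B form the dimers that flank the H3 and H4 tetramer in the nucleosome, and their genes often share a divergent promoter. H2A genes summed to 344 and 156 read equivalents with total Pol II (−1.14, −1.42 to −0.86) and to 1070 and 441 for Ser5P (−1.28, −1.44 to −1.12). Of the 4 highest, 3 lie in the Hist2 cluster.

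Hist2h2aa2 had 1178 and 369 for total Pol II and 3597 and 1740 for Ser5P. Its copy Hist2h2aa1 had 894 and 348, and 3292 and 1416. Hist2h2ac had 1151 and 493, and 3204 and 1581. Each was lower in shRPAP1 with both antibodies, with every interval below 0. Hist3h2a, whose window is unique throughout, had 991 and 726 for total Pol II (−0.45, −1.25 to 0.34) and 2623 and 1302 for Ser5P (−1.01, −1.56 to −0.49).

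With total Pol II the ratios spread most widely in H2A, from −3.07 to 0.56. With Ser5P they spanned −2.25 to −0.80 in H2A and −2.34 to −0.49 in H4. With Ser5P, Hist1h2ai went from 1429 to 300 (−2.25, −3.47 to −1.33) and Hist1h2aj from 1030 to 223 (−2.20, −3.49 to −1.04). With total Pol II, Hist1h2af had 254 and 29.6, the latter 1 read equivalent. Hist1h2an was the reverse, with 145 and 213, or 5 and 7 read equivalents (0.56, −1.39 to 2.48), while its Ser5P signal was 822 and 327. In these 4 genes between 9.97% and 21.3% of the words are unique. Hist1h2aa, known from testis, had 0.72 in 3 libraries and 15.9 in Ser5P shRPAP1.

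H2B genes summed to 319 and 157 read equivalents with total Pol II (−1.02, −1.31 to −0.74) and to 1025 and 407 for Ser5P (−1.33, −1.50 to −1.17). Hist2h2bb led with 1393 and 785 for total Pol II and 2999 and 1224 for Ser5P. Hist1h2bg had 977 and 371, and 2594 and 1165. Hist1h2bb had 938 and 397, and 2196 and 739. The ratios of these 3 had intervals below 0 with both antibodies.

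Hist1h2bq, with no unique word, had 425 and 213 for total Pol II and 2561 and 1225 for Ser5P. Hist1h2be had 309 and 36.1 for total Pol II, or 11 and 1 read equivalents, and 457 and 207 for Ser5P. Its annotated start belongs to a long transcript, so its window may not be the promoter of the short histone transcript. The testis gene Hist1h2ba had 58.4, 17.3, 418 and 183 in total SCR, total shRPAP1, Ser5P SCR and Ser5P shRPAP1. Hist3h2ba had 38.2, 41.1, 116 and 0.72, at most 4 read equivalents.

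In 13 divergent pairs an H2A and an H2B gene start within 1 kb of each other, at a median distance of 267 bases and a range of 176 to 660 over all 14 divergent pairs. With windows placed from 30 bases before each start, an assumed position, none would overlap, but windows placed farther upstream would overlap and share reads. In SCR the H2B promoter had the higher Ser5P signal in 12 of the 13 pairs and the higher total signal in 9. The pair Hist1h2ae and Hist1h2bg had 1360 and 2594 for Ser5P, and Hist1h2ah and Hist1h2bk had 923 and 1866. The exception was Hist2h2ac with Hist2h2be, at 3204 and 648.

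H3 carries many of the modified tail residues of chromatin. Its 12 genes summed to 277 and 124 read equivalents with total Pol II (−1.16, −1.48 to −0.85) and to 783 and 403 for Ser5P (−0.96, −1.14 to −0.78). Among the types, H3 alone had a Ser5P sum that fell less than its total sum, and the intervals overlap. Hist1h3f, with a unique window, had 1310 and 754 for total Pol II and 2906 and 1449 for Ser5P. Hist1h3i had 1093 and 480, and 2509 and 1295. Both had intervals below 0 throughout.

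Hist1h3a and Hist1h3e had 2 of the 3 smallest Ser5P differences. Hist1h3a had 1838 and 1182 for Ser5P (−0.64, −1.24 to −0.05) and 967 and 419 for total Pol II (−1.21, −2.12 to −0.22). Hist1h3e had 2285 and 1534 (−0.57, −1.11 to −0.06) and 769 and 300.0 (−1.36, −2.64 to −0.34). Hist2h3c2 had the lowest total ratio among members with at least 10 read equivalents, with 558 and 58.4, or 19 and 2 read equivalents (−3.24, −6.39 to −1.20), and 1419 and 521 for Ser5P. Hist1h3g had 145 and 139 for total Pol II, 5 read equivalents in each, and 1236 and 578 for Ser5P.

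H4 is the most conserved core histone, and its genes stood highest. The median promoter signal in SCR was 1039 for total Pol II and 3224 for Ser5P, above every other type with both antibodies. With total Pol II H3, H1, H2B and H2A followed with 589, 469, 427 and 384. With Ser5P the order was H1, H3, H2B and H2A, with 1853, 1831, 1793 and 1395. The lowest H4 gene had 2318 for Ser5P, and 12 of the 56 other members reached it. With total Pol II 29 of the 56 reached the lowest H4 gene, so the ranges overlap widely there. The medians of H1, H2B and H2A differed by less than the spread within each type.

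H4 genes summed to 477 and 246 read equivalents with total Pol II (−0.96, −1.18 to −0.73) and to 1434 and 627 for Ser5P (−1.19, −1.33 to −1.06). Hist1h4c, the highest member with total Pol II, had 1718 and 787, and 3740 and 1662 for Ser5P (−1.17, −1.64 to −0.71). Hist1h4n, the highest with Ser5P, had 3860 and 2332 (−0.73, −1.14 to −0.32) and 1483 and 865 for total Pol II. Hist1h4d had 1308 and 627, and 3654 and 1438. All 3 were lower with both antibodies.

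Of the other H4 genes named here, Hist1h4i alone had an interval that reached past 0, and only with total Pol II. Hist1h4i had 810 and 763 for total Pol II (−0.09, −0.93 to 0.72) and 3835 and 1892 for Ser5P (−1.02, −1.46 to −0.57). Hist1h4k had the lowest Ser5P ratio of the set among members with at least 10 read equivalents, with 2666 and 526 (−2.34, −3.17 to −1.61), and 677 and 179 for total Pol II. Hist2h4 had the highest, with 2738 and 1947 (−0.49, −0.98 to −0.04), while its total signal was 1246 and 475 (−1.39, −2.35 to −0.57). The Ser5P intervals of Hist1h4k and Hist2h4 do not overlap, though both were picked from the ends of the set. Hist4h4, alone on chromosome 6, had 1308 and 780 for total Pol II and 2909 and 1188 for Ser5P.

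The clusters lie on 4 chromosomes. On GRCm38, Hist1 has a block of 24 members at chr13:21715763-22043676 and one of 29 at chr13:23531050-23764406. The testis pair Hist1h2ba and Hist1h2aa lies at chr13:23933773-23934851, and Hist1h2al lies alone at chr13:51202727-51203065. Hist2 is at chr3:96219865-96270132, Hist3 at chr11:58948920-58956830 and Hist4h4 at chr6:136801553-136804415. The log2 ratio of summed promoter signal was −0.98 (−1.13 to −0.84) in Hist1 and −1.36 (−1.69 to −1.05) in Hist2 for total Pol II. With Ser5P it was −1.23 (−1.31 to −1.14) and −1.06 (−1.24 to −0.87), so the order of the clusters was opposite with the 2 antibodies and the intervals overlap in both. The blocks of 24 and 29 had −0.89 and −1.05 for total Pol II and −1.27 and −1.19 for Ser5P, also with overlapping intervals.

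Over gene bodies the histone genes differed more from other genes than at promoters. The body window is the transcript less 302 bases. Its median is 174 bases in the 65 members given a length, and it is as short as 10 in Hist1h4k. For 42 of these an annotated transcript fits the values. For 22 no annotated transcript fits, and the shortest length that fits the values was taken. The length of Hist1h2be, 37123 bases, is from annotation alone and could not be checked on the values. The window position is not given in the sources used here. The median log2 ratio was −1.23 for total Pol II (middle 50% −1.96 to −0.59) and −1.40 for Ser5P (−2.06 to −1.08). Over all measured genes it was −0.53 and −0.72, and over the most occupied 10% of genes −0.90 and −1.03. Of 68 measured members 52 were lower and 3 higher with total Pol II, where 45.5% of all measured genes were lower and 7.57% higher. With Ser5P 62 of 68 were lower and 1 higher, where 59.9% were lower and 8.53% higher, and in the most occupied 10% of genes 76.6% and 86% were lower. In the 26 members with at least 50% unique promoter words, the median with total Pol II was −1.02, and 64% of those measured were lower. Their sums gave −0.82 (−1.01 to −0.64), against −1.54 (−1.82 to −1.27) in the 43 others. Hist1h2be alone, by its unchecked length, held 209 and 140 of the 641 and 362 read equivalents of these 26. With Ser5P the sums gave −1.21 (−1.36 to −1.06) and −1.40 (−1.58 to −1.22). The part of copies in the body difference was not tested.

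The receptor signal, which rose over bodies from 7.08 to 12.5 for total Pol II and from 5.75 to 10.0 for Ser5P, moved with this difference. With its mean subtracted, the medians were −1.32 and −1.46 for members against −0.90 and −1.03 for all genes. Other genes with a body window of up to 500 bases had −0.20 and −0.71, with a middle 50% from −4.01 to 1.89 for total Pol II. Of such genes 45% were lower with total Pol II and 50.6% with Ser5P. The 54 members with windows of up to 500 bases summed to 352 and 131 read equivalents with total Pol II (−1.43, −1.73 to −1.13) and to 931 and 322 for Ser5P (−1.53, −1.72 to −1.35). In the 15 members with longer or unknown windows the medians were −1.04 and −1.22. Those given a length, among them Hist1h2be with its unchecked one, summed to 719 and 379 (−0.92, −1.11 to −0.74) and to 1235 and 564 (−1.13, −1.28 to −0.99).

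By type, median body ratios with total Pol II were −0.92 for H1, −1.31 for H2A, −1.24 for H2B, −1.38 for H3 and −1.12 for H4. With Ser5P they were −1.28, −1.75, −1.22, −1.21 and −1.48. No body coverage was seen in 8 of 65 members in total shRPAP1 and in 2 in each other library. Hist1h1c, the H1 gene with the most body signal with total Pol II, had 678 and 302 for total Pol II and 1498 and 639 for Ser5P, the latter 198 and 84 read equivalents (−1.23, −1.62 to −0.86). Hist1h1d had slightly more Ser5P body signal in SCR, with 1531 and 384. Hist2h4 had 757 and 373, and 1432 and 602, or 200 and 84 read equivalents (−1.25, −1.64 to −0.88), so its Ser5P signal was lower by more over the body than at the promoter. Hist1h4c had 1592 and 409, and 1781 and 522.

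Within a library, promoter over body signal does not depend on a factor that scales the whole library. In short body windows with few or no reads it still depends on depth. In SCR the median ratio was 2.09 over the members with total Pol II and 2.03 for Ser5P, against 3.58 and 6.26 over all genes measured in both regions. In shRPAP1 it was 2.59 and 2.78 against 2.55 and 5.42. The log2 change per member had a median of 0.18 for total Pol II, up in 37 of 65 members, and of 0.20 for Ser5P, up in 42 of 66. Of all genes measured in both regions, 3097 of 9423 and 4732 of 12148 went up. Of other genes with body windows of up to 500 bases, 168 of 289 and 298 of 565 did. By type the median change lay between 0.09 and 0.39, except for H2B with Ser5P, at −0.10 and up in 8 of 17 members. All genes changed by −0.44 and −0.22, and after subtraction of the mean receptor signal by −0.24 and 0.01, against 0.22 and 0.24 for the members. Other genes with short body windows had ratios near 1 in SCR, 0.96 and 1.07, and changed by 0.39 and 0.12. The part of window length and of the higher receptor signal in the difference from all genes was not tested further.

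**Figure D3:**
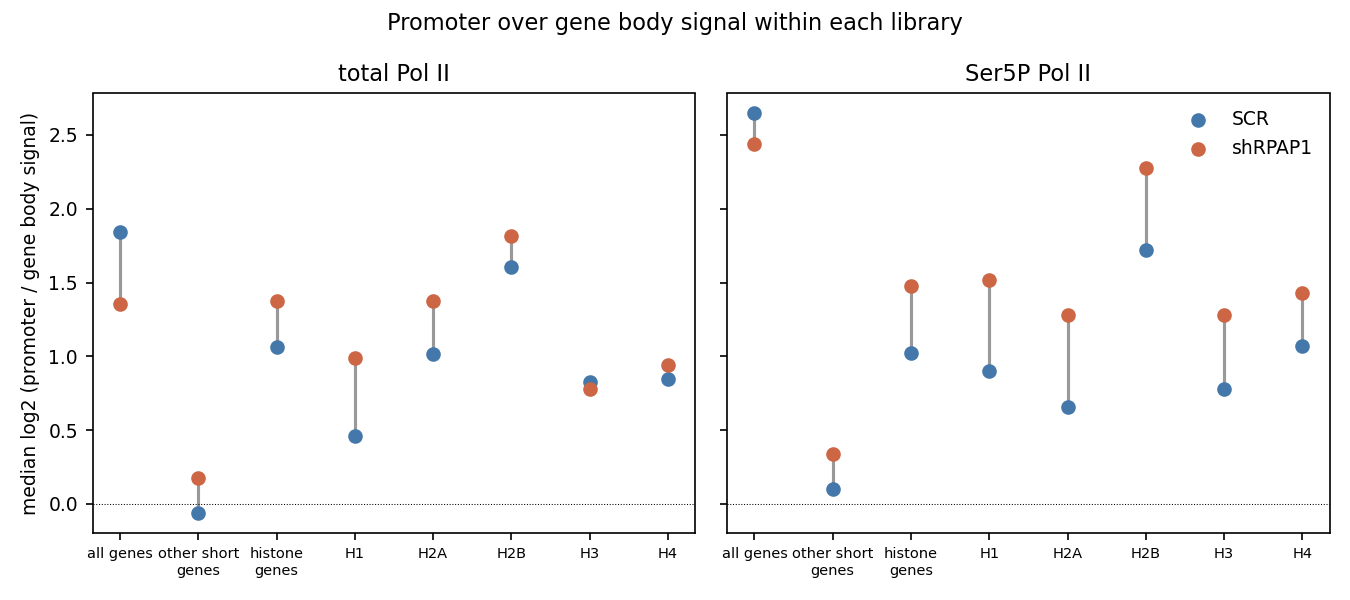
Median log2 ratio of promoter over gene body signal within each library (SCR blue, shRPAP1 orange) for all genes, other genes with a body window of up to 500 bases, all histone members and each type. The ratio is lower in shRPAP1 for all genes (3.58 to 2.55 for total Pol II) and higher for the histone genes (2.09 to 2.59), and among types only the H3 median with total Pol II is lower in shRPAP1 (1.77 to 1.72).

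Ser5P was high relative to total Pol II at these genes. At promoters in SCR the Ser5P signal was a median of 3.15 times the total signal over members and 2.32 times over all genes. Over bodies it was 2.38 and 1.23 times, and 3.13 against 1.13 times when both are limited to body windows of up to 500 bases. The 2 antibodies were not calibrated to each other, so the ratio ranks genes within a condition and is no share of phosphorylated Pol II. In shRPAP1 the medians were 2.73 and 2.34 at promoters and 2.06 and 1.09 over bodies. H3 promoters alone among the types had a higher median in shRPAP1, 3.56 against 2.96.

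**Figure D4:**
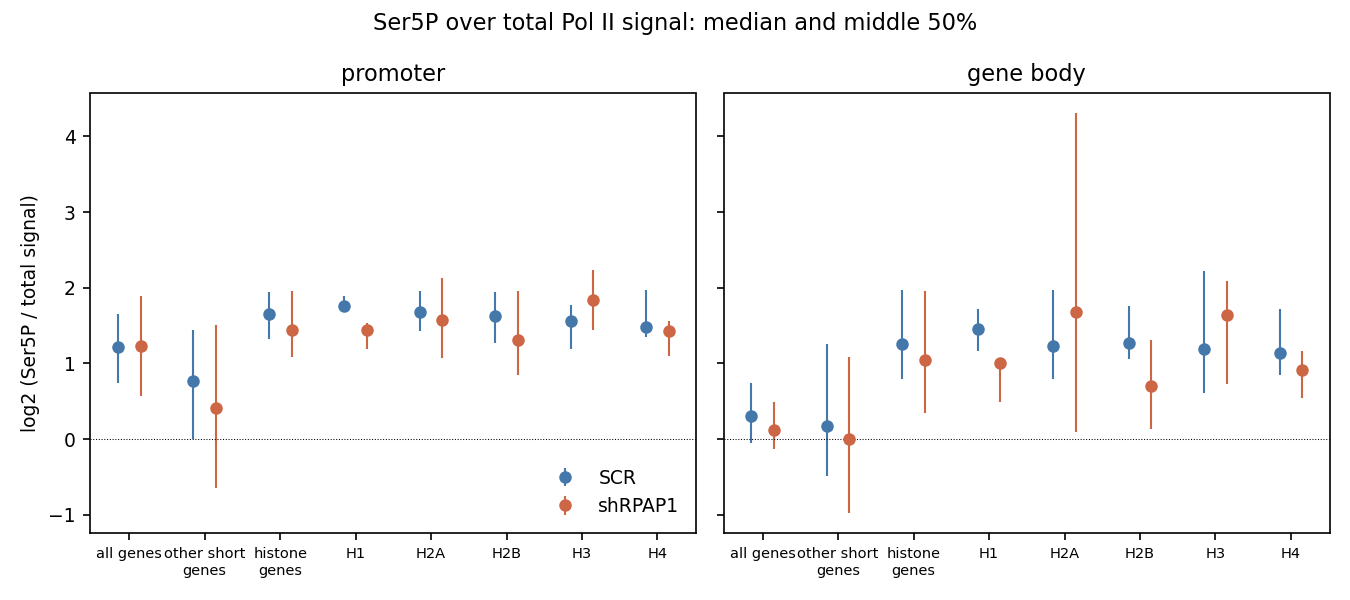
Log2 ratio of Ser5P over total Pol II signal (points medians, bars the middle 50% of genes) at promoters and over gene bodies in SCR (blue) and shRPAP1 (orange). Histone genes lie above all genes and above other genes with short body windows in both regions, 3.15 against 2.32 at promoters and 2.38 against 1.23 over bodies in SCR.

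Genes that act with these histones mostly had lower signal and fewer reads. Exceptions with total Pol II were H2afx, with 1322 and 535, and the chaperone gene Npm1, with 1386 and 846. Of 11 replication-independent histone genes, which are also expressed outside S phase, 8 of 10 measured were lower with total Pol II and none higher, where 65.8% of all measured genes were lower and 10.1% higher. The median was −1.33, against −0.97 over all genes. H1f0 had 425 and 51.2, H2afy had 58.4 and 87.3, and Cenpa, the centromeric H3, had 116 and 159. H3f3a had 174 in SCR and no coverage in shRPAP1 for total Pol II, and 420 and 188 for Ser5P. Of these 4, the values of all but H1f0 rest on 6 or fewer read equivalents a library with total Pol II.

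Among 14 factors of the histone locus body and of 3′ end processing, 8 of 12 measured were lower and none higher, with a median of −0.99. This share and this median lay close to those of all measured genes, 65.8% and −0.97. Coil, the coilin gene, had 173 and 29.6, and Sympk, for the scaffold symplekin, had 185 and 29.6. Cpsf3, for the endonuclease that cuts histone transcripts, had 203 and 174, and Casp8ap2 had 141 and 145. Histone chaperones had 14 lower and 1 higher of 18 measured, beside 65.8% and 10.1% of all measured genes, with a median of −1.30. Cabin1 had 498 and 58.4, Asf1a 164 and no coverage, Anp32e 174 and 203, and Ipo4 29.6 and 61.3.

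S phase genes had 12 lower and 1 higher of 20 measured, of 31 listed, a share lower that is no larger than the 65.8% of all measured genes. Their median of −0.97 was that of all genes. Cdc6 had 260 and 45.4, Pold1 had 232 and 46.9, and Orc1 had 101 and 116. Rrm1, a subunit of the enzyme that makes deoxynucleotides, had no coverage in SCR and 104 in shRPAP1 for total Pol II, but 490 and 171 for Ser5P. In bulk cells a smaller share of cells in S phase and less Pol II per cell cannot be told apart.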

How the data were processed

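Per the labels' protocols, fixed chromatin was sonicated and precipitated with antibodies to total Pol II or Ser5P. The deposited values are a signal per gene, with a promoter and a gene body column for each library. The submitters' processing notes name MACS2 2.0.10.20130712, bedtools 2.23.0, SAMtools 0.1.16 and FastQC. No source used here gives the aligner, read filters, window positions or scaling. Each of the 144688 promoter values was a whole multiple of 0.721 within 0.0101 of a step, which gives a promoter window of 330 bases and a body window of the transcript less 302 bases. These windows made body values whole for 4090 of 4563 short genes of a single transcript. Read equivalents take reads of 40 bases. Where reads overlap or are cut by a window edge they are approximate.

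From 36230 rows, 58 exact repeats were dropped. The log2 ratio adds a pseudocount of 0.72 at promoters and 0.33 over bodies, the 5th percentile of all values. Measured genes exceed the 95th percentile of 1760 receptor genes. Intervals are exact 95% Clopper-Pearson intervals. Promoter windows for word uniqueness were taken from 30 bases before the GENCODE vM21 start, an assumed position. Named genes were Rpap1, the 4 members of each type with the highest summed promoter signal, all Hist3 and Hist4 members, the 3 highest and 3 lowest promoter ratios per antibody among members with at least 10 read equivalents, and the 2 highest and 2 lowest of each list. Others, such as the testis genes, the members without a unique word and the divergent pairs, were chosen after their values were seen. The members and lists were chosen with earlier results of these data known. Promoter ratios were tested on simulated reads of equal depth, for genes expected at 10 or more read equivalents. Gene bodies, promoter over body ratios, unequal depth and reads that match several places were not simulated. Python 3.11.15, numpy 2.4.6, pandas 2.3.3, scipy 1.17.1 and matplotlib 3.10.9 were used. The 12 RNA-seq samples and the input, of 17 samples, were not analysed here.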

Additional observations from a re-analysis of the deposited data

How the results depend on the processing

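No paired analysis was possible because each group is 1 library. With the median ratio of all measured genes set to 1, separately for each region and antibody, the median log2 ratio of the members was −0.14 (total) and −0.20 (Ser5P) at promoters. Over bodies it was −0.70 and −0.68. The medians of all measured genes were then near 0 by construction. At promoters 11 and 13 members were lower, and over bodies 36 with Ser5P. The share of all genes lower in this setting was not counted. Promoter over body changed by 0.62 and 0.44 in the members and by −0.0015 and 0.022 in all genes, since the regions were scaled by different factors. With this setting the H1 promoter median with total Pol II became 0.017. The ratios of sums became 0.26 for H1 and 0.014 for H4 with total Pol II and 0.0086 for H3 with Ser5P. Of the promoters named by rule, those that turned positive were Hist1h1c (0.017), Hist1h1e (0.52), Hist1h2ai (0.57), Hist1h3f (0.17), Hist1h3g (0.90), Hist1h4i (0.88), Hist1h4n (0.19), Hist2h2bb (0.14), Hist3h2a (0.52) and Hist4h4 (0.22) with total Pol II, and Hist1h3a (0.33), Hist1h3e (0.39), Hist1h3i (0.011), Hist1h4n (0.24) and Hist2h4 (0.47) with Ser5P. With the mean receptor signal set equal, also by region and antibody, medians of the members were −1.91 and −1.76 at promoters and −2.04 and −2.20 over bodies. Those of all measured genes were −1.77 and −1.54 at promoters and −1.34 and −1.51 over bodies. Hist1h1b (−0.78), Hist1h2an (−0.25) and Hist3h2ba (−0.68) turned negative with total Pol II. Hist3h2ba also did with that signal subtracted (−0.15). Members with at least 50% unique words, chosen after seeing the data, number 26. At promoters 18 of 23 measured (total) and 23 of 24 (Ser5P) were lower, beside 65.8% and 69.9% of all measured genes. Their median log2 ratios were −0.91 and −1.16, against −0.97 over all measured genes with both antibodies. Apart from that, subtracting the mean receptor signal, the other pseudocounts and filters, 1 member per pair, kept repeats, and 2 alternatives chosen after seeing the data (members with no coverage set to 3 reads, body windows up to 500 bases) moved none of the main medians beyond their intervals or counts beyond 1.5 times. The depth limits single members with total Pol II, where many intervals reach past 0.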

Other observations

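The pseudogene row Hist3h2bb-ps, left out by the rule, had a promoter signal of 136 and 128 for total Pol II and 314 and 188 for Ser5P in SCR and shRPAP1, or 5, 4, 11 and 6 read equivalents. In each library it was above Hist3h2ba, at 38.2, 41.1, 116 and 0.72. The 13 members whose promoter holds GGTCCG had a median SCR promoter signal of 1039 for total Pol II and 2909 for Ser5P, against 469 and 1612 in the 48 without it. Their median log2 ratios were −1.06 and −1.29, against −1.22 and −1.17. Since 11 of the 13 are H4 genes, the motif and the histone type cannot be told apart. The 34 members with TATAAA had medians of 567 and 1766, against 545 and 1825 in the 27 without it, and log2 ratios of −1.20 and −1.30 against −1.10 and −1.13.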
